A study of Mus musculus with 6 samples.

Results

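Collagen and stromal matrix transcripts were examined in BMDMs, macrophages that are grown in culture from bone marrow precursors. A list of 38 gene symbols was looked up in the deposited table of 13254 genes, and 37 of them were listed; Lum was the name with no row. The list holds fibrillar and other collagens, the proteins that decorate and crosslink collagen fibres, secreted regulators, and receptor and contractile genes of mesenchymal cells. RNA sequencing of total RNA, read as pairs, covered 3 libraries from mice without the microRNA cluster miR-130b/301b (KO) and 3 libraries from wild-type mice (WT). The labels give no strain, age, sex or further treatment, describe the culture only as standard, and do not say how the cluster was deleted. Whether the 3 libraries of a genotype come from different animals is not stated, so a p-value here reflects the spread among libraries, which may be technical. Values are CPM (counts scaled to library size) as the authors deposited them, and depth in reads is unknown.

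Collagens are made as procollagen chains that are folded in the endoplasmic reticulum with the help of the chaperone encoded by Serpinh1, secreted, trimmed, and crosslinked by lysyl oxidases. Fibroblasts and other mesenchymal cells are the textbook source of type I, III and V collagen, of periostin and of decorin. Macrophages are better known for binding, taking up and degrading matrix than for laying it down, although they are known to secrete some matrix proteins, fibronectin among them.

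The macrophage label held in every library. All 10 macrophage markers examined, Lyz2, Csf1r and Adgre1 among them, were listed. Their summed level ran from 19747 to 20498 CPM in KO libraries and from 18107 to 18759 CPM in WT libraries, without overlap. Lyz2 made up most of that sum, averaging 12163 CPM in KO and 10513 CPM in WT. Cd163 was the lowest marker, with a mean of 2.89 CPM over the 6 libraries. None of the 10 passed the test described next, in either direction, and their median log2 fold change was 0.02. The microRNA genes of the cluster, Mir130b and Mir301b, have no row among the 13254, so their loss could not be read from these values.

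KO was compared with WT by limma on log2(CPM + 1), two-sided, with Benjamini-Hochberg adjustment at 0.05 over the 11556 genes that reached 1 CPM in 3 or more libraries. Of these genes 147 passed, which is 1.27%, with 91 lower in KO (0.787%) and 56 higher in KO (0.485%). Of the 37 listed matrix genes 32 entered the test, and Loxl1, Fbln2, Cxcl12, Pdgfra and Dcn fell under its minimum. Igfbp7 and Fbn1 entered it only through the WT libraries, since no KO library reached 1 CPM. Col3a1, Col12a1 and Postn reached 1 CPM in 1 KO library each and so met the minimum through WT as well; fitted with no minimum, they had limma BH-adjusted p of 0.0121, 0.0422 and 0.0415. Col3a1, Col12a1 and Postn passed as lower in KO, 0 passed as higher in KO, and 29 did not pass. The median level in KO was 40.1% of that in WT over the 37 listed genes, from 14.5% for Col3a1 to 131% for Fbln5. The median over all tested genes was 100.01%. In bulk RNA, fewer cells of a type and less RNA per cell cannot be told apart.

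Col3a1 encodes the single chain of type III collagen, which forms fine reticular fibres and mixes with type I collagen in fibrils. The gene lies at chr1:45311538-45349706 on the plus strand (GENCODE M21 on GRCm38, the build of all gene coordinates and lengths here). It had 0.816, 0.337 and 1.49 CPM in KO replicates 1, 2 and 3, against 8.62, 5.30 and 4.36 CPM in WT replicates 1, 2 and 3. Every KO library was below every WT library, KO replicate 2 was the lowest of the 6, and WT replicate 1 stood highest. Means were 0.881 ± 0.580 CPM in KO and 6.09 ± 2.24 CPM in WT (SD, n = 3 each). The log2 fold change was -1.92 (SE 0.26), with a limma BH-adjusted p of 0.0133. The adjusted p ran from 0.0113 to 0.0716 over the alternatives. The call was lost without the mean-variance trend (adjusted p = 0.0596), without KO replicate 1 (0.0716) and without WT replicate 2 (0.0549).

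Col12a1 encodes type XII collagen, a fibril-associated collagen that does not form fibrils itself, and lies at chr9:79598991-79718831 on the minus strand. Its level was 0.940, 0.694 and 2.00 CPM in KO replicates 1, 2 and 3, against 4.79, 3.42 and 3.33 CPM in WT replicates 1, 2 and 3. The groups did not overlap, and KO replicate 3 was the KO library nearest to WT. The log2 fold change was -1.16 (SE 0.22), with a limma BH-adjusted p of 0.0456. Postn encodes periostin, a matricellular protein that binds collagen and integrins, and lies at chr3:54361109-54391037 on the plus strand. It had 0.274, 0.261 and 1.20 CPM in KO replicates 1, 2 and 3, against 2.20, 2.29 and 2.42 CPM in WT replicates 1, 2 and 3. The WT libraries lay close together, while KO replicate 3 was several times above the other KO libraries and still below WT. The log2 fold change was -1.12 (SE 0.21), with a limma BH-adjusted p of 0.0482. Both calls sat close to the threshold, and leaving out any library other than KO replicate 3 ended both, with adjusted p up to 0.173 for Col12a1 and 0.198 for Postn. With pseudocounts of 0.1 and 0.5 neither passed (adjusted p from 0.052 to 0.0928), nor did either without the trend (0.125 for Col12a1 and 0.116 for Postn).

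Col1a1 and Col1a2 encode the 2 chains of type I collagen, the main collagen of bone, skin and tendon, and were the most abundant of the 11 collagens on the list. Col1a1 had 4.56, 1.38 and 12.3 CPM in KO replicates 1, 2 and 3, against 16.7, 14.5 and 16.6 CPM in WT replicates 1, 2 and 3. Col1a2 had 6.76, 2.52 and 16.2 CPM in KO replicates 1, 2 and 3, against 23.1, 22.1 and 25.0 CPM in WT replicates 1, 2 and 3. For both genes the WT libraries were close together and all KO libraries lay below them, yet KO replicate 3 was nearer to WT than to KO replicate 2. The KO libraries differed by 8.91-fold for Col1a1 and by 6.44-fold for Col1a2 (replicate 3 over replicate 2), and neither gene passed the test. The log2 fold change was -1.59 for Col1a1 (SE 0.50, limma BH-adjusted p = 0.236) and -1.65 for Col1a2 (SE 0.46, limma BH-adjusted p = 0.186). Without KO replicate 3 both passed, with adjusted p of 0.0224 and 0.0156.

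The type V chains, which join type I collagen in heterotypic fibrils and limit their width, were likewise lowest in KO replicate 2. Col5a1 had 1.54, 0.350 and 1.22 CPM in KO replicates 1, 2 and 3, against 3.21, 2.53 and 2.78 CPM in WT replicates 1, 2 and 3. Col5a2 had 1.03, 0.486 and 2.43 CPM in KO replicates 1, 2 and 3, against 4.10, 3.70 and 4.01 CPM in WT replicates 1, 2 and 3. The genotypes did not overlap for either gene, and KO replicate 3 was the highest KO library for Col5a2 but not for Col5a1. The limma BH-adjusted p was 0.105 for Col5a1 and 0.0882 for Col5a2, so neither passed. The summed level of the 5 fibrillar collagens was 14.7, 5.07 and 33.7 CPM in KO replicates 1, 2 and 3, against 55.7, 48.2 and 52.8 CPM in WT replicates 1, 2 and 3.

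Among the 6 other collagens, Col12a1 was the one that passed. The type VI chains Col6a1, Col6a2 and Col6a3, which build beaded microfibrils around cells, averaged 2.29, 1.40 and 1.62 CPM in KO and 7.13, 4.53 and 4.16 CPM in WT. Their limma BH-adjusted p was 0.0592, 0.0682 and 0.244 in that order. The type IV chains Col4a1 and Col4a2, the network collagen of basement membranes, averaged 1.09 and 1.04 CPM in KO and 2.76 and 1.70 CPM in WT, with adjusted p of 0.0653 and 0.212. In all 6 genes every KO library was below every WT library, against 9.1% of all tested genes. In all 6 the KO order from low to high was replicate 2, replicate 1, replicate 3, against 17.7% of all tested genes. The spread between KO replicates 3 and 2 was smallest in the head-to-head pair of type IV genes, at 1.94-fold for Col4a1 and 1.43-fold for Col4a2, and reached 10.2-fold for Col6a3.

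**Figure D1:**
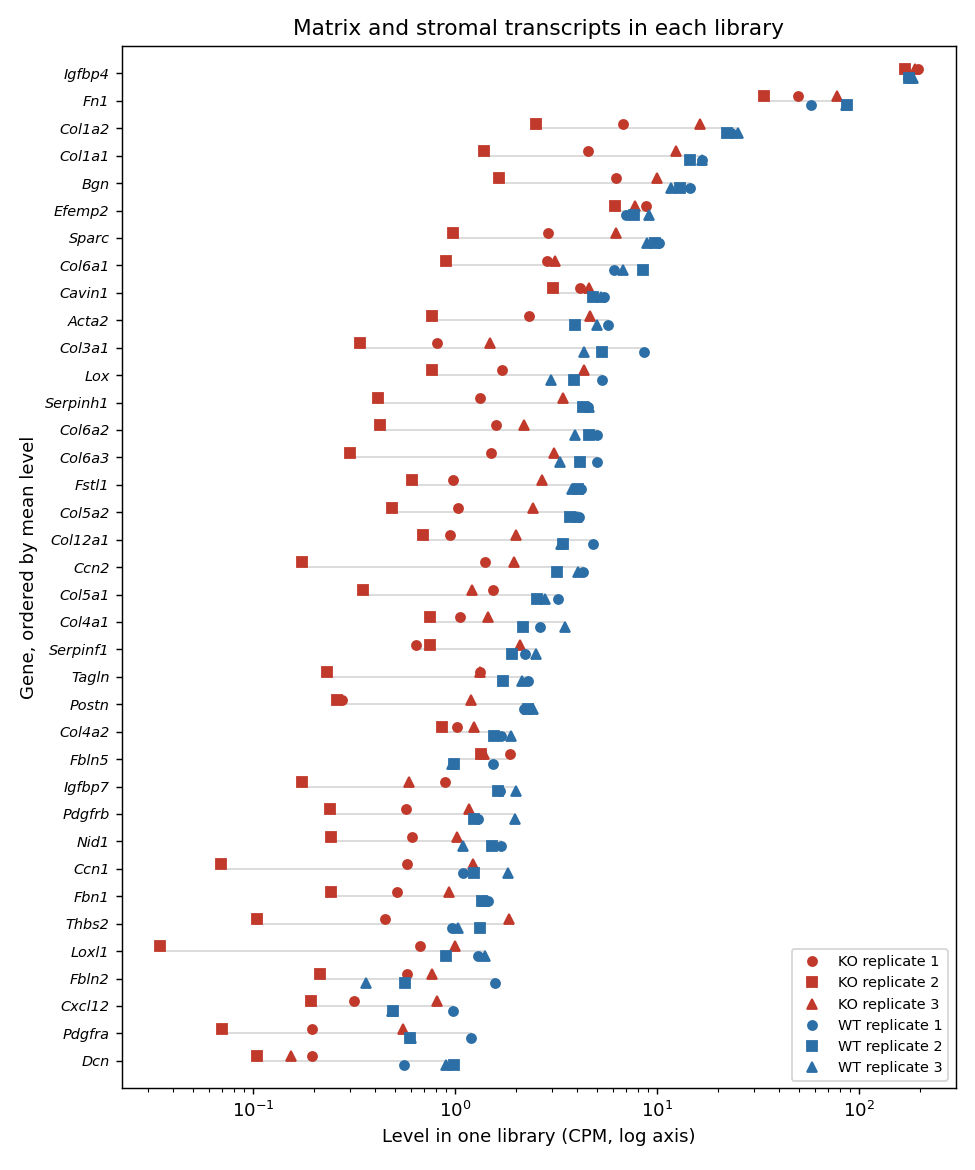
Level of the 37 listed matrix and stromal genes in each library, in CPM on a log axis, ordered by mean level; red marks are the 3 KO libraries and blue marks the 3 WT libraries. The KO squares (replicate 2) are the lowest mark in 35 of 37 rows, while the blue marks mostly cluster at the right end of each row.

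The matrix genes varied together across libraries. KO replicate 2 was the lowest of all 6 libraries for 35 of the 37 listed genes, the exceptions being Serpinf1 (KO replicate 1) and Fbln5 (WT replicate 3). Over all tested genes KO replicate 2 was lowest in 18.5%. Every KO library was below every WT library for 25 of the 37, against 9.1% of all tested genes, and for 0 of the 37 was every KO library above every WT library, against 8.55% of all tested genes. KO libraries stood in the order replicate 2, replicate 1, replicate 3 from low to high in 29 of the 37, against 17.7% of all tested genes. That order with all WT libraries above it held for 21 of the 37, against 1.95% of all tested genes. These orders were noticed in the same values and are descriptions of 6 libraries.

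The KO libraries also differed widely in the size of these values. KO replicate 3 exceeded KO replicate 2 by at least 2-fold in 30 of the 37 listed genes, with a median of 4.43-fold and a highest value of 28.7-fold for Loxl1, a lysyl oxidase family gene that crosslinks elastin and collagen. Over all tested genes the median was 1.0003, and 99 genes (0.857%) reached 2-fold. Of those 99 genes 26 were on the matrix list, which is 26.3% of the 99. Among the 3237 tested genes with a mean of 1 to 10 CPM, 2.32% reached 2-fold. Within WT the same genes were steadier: the highest WT library exceeded the lowest by a median of 1.35-fold, and by under 2-fold in 35 of 37. WT replicate 1 was the highest WT library for 21 of the 37, WT replicate 3 for 12 and WT replicate 2 for 4.

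**Figure D2:**
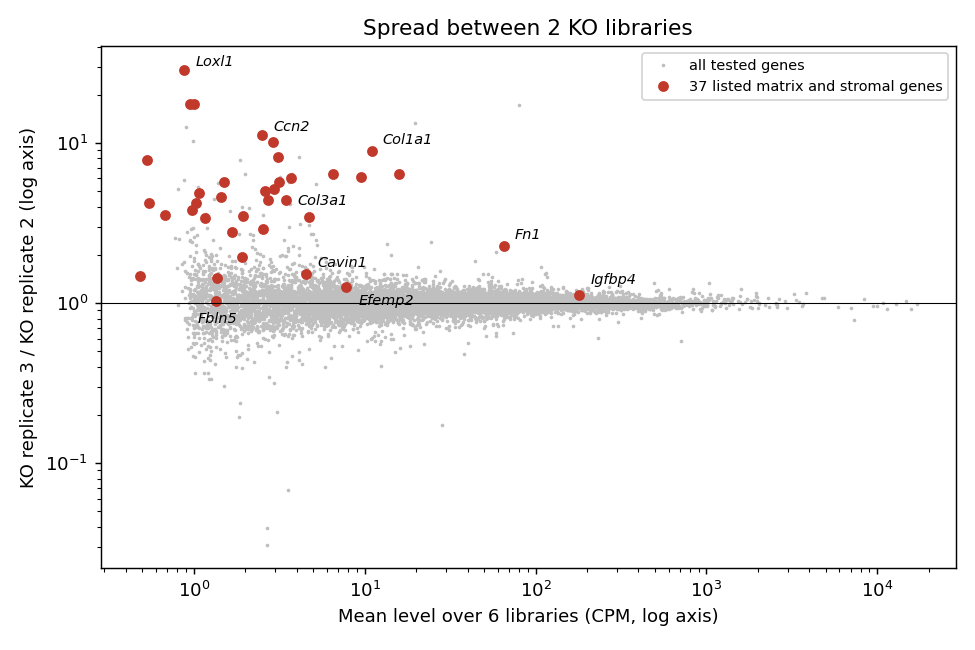
Ratio of KO replicate 3 to KO replicate 2 (log axis) against mean level over the 6 libraries in CPM (log axis); grey points are tested genes with a value above 0 in both libraries, red points the 37 listed matrix and stromal genes. Most grey points lie along a ratio of 1, whereas 30 of the 37 red points lie at 2 or more, with Igfbp4, Efemp2, Cavin1 and Fbln5 among the red points near 1.

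Low-level members were taken as those with a mean under 10 CPM over the 6 libraries, 33 of the 37. Their summed level was 51.8, 24.0 and 79.9 CPM in KO replicates 1, 2 and 3, against 124, 109 and 110 CPM in WT replicates 1, 2 and 3. After each gene's genotype mean was subtracted on the log2(CPM + 1) scale, the 528 pairs of low-level genes had a median Pearson r of 0.758 over the 6 libraries, and 95.5% of the pairs had a positive r. Pairs drawn from all tested genes had a median r of 0.00375, with 50.2% positive. The 6 points of each pair share their libraries and scaling, and most of the shared movement was the gap between KO replicates 2 and 3. The mean deviation of the low-level genes was 0.04, -0.48 and 0.45 in KO replicates 1, 2 and 3, against 0.09, -0.07 and -0.03 in WT replicates 1, 2 and 3. Without KO replicate 2 the median r was 0.497.

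Single genes differed in how closely they tracked the rest. Deviations correlated above 0.9 with the mean of the other low-level members for 16 of the 37 genes. Acta2 and Col1a1 stood highest at 0.989, followed by Sparc and Fbn1 at 0.988. Acta2 encodes smooth muscle actin, the contractile actin of smooth muscle and myofibroblasts; Sparc encodes osteonectin, a collagen-binding glycoprotein, and Fbn1 fibrillin 1 of elastic microfibrils. Efemp2 (0.468), Fbln5 (0.200) and Dcn (-0.000899) were the 3 genes at or under 0.5. Dcn, for the small proteoglycan decorin, was listed at 0.194, 0.105 and 0.154 CPM in KO replicates 1, 2 and 3, against 0.556, 0.980 and 0.902 CPM in WT replicates 1, 2 and 3. Its KO values were uniformly low, with no rise in KO replicate 3, and did not enter the test.

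The glycoproteins and proteoglycans followed the shared KO order in 8 of 11 listed genes, against 17.7% of all tested genes. Sparc averaged 3.36 ± 2.66 CPM in KO and 9.62 ± 0.652 CPM in WT (SD, n = 3 each). Bgn, for the proteoglycan biglycan, averaged 5.96 ± 4.19 CPM in KO and 13.1 ± 1.47 CPM in WT (SD, n = 3 each). Both were non-overlapping and short of the threshold, with limma BH-adjusted p of 0.15 for Sparc and 0.279 for Bgn. Nid1, for the basement membrane linker nidogen 1, averaged 0.626 CPM in KO and 1.43 CPM in WT, and Thbs2, for the matricellular thrombospondin 2, averaged 0.798 CPM in KO and 1.11 CPM in WT. Thbs2 was the one listed gene with its highest value in KO replicate 3, at 1.84 CPM, and the limma BH-adjusted p was 0.248 for Nid1 and 0.704 for Thbs2. Fbn1 averaged 0.563 CPM in KO and 1.40 CPM in WT (adjusted p = 0.157), and Fbln2, which was not tested, averaged 0.520 CPM in KO and 0.834 CPM in WT.

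Among the collagen folding and crosslinking genes, Serpinh1, whose product HSP47 is the collagen-specific chaperone, had 1.32, 0.416 and 3.40 CPM in KO replicates 1, 2 and 3, against 4.52, 4.29 and 4.62 CPM in WT replicates 1, 2 and 3. The KO libraries stood in the order seen for Col1a1 and Col1a2, with an 8.17-fold gap between KO replicates 3 and 2, and the gene did not pass (limma BH-adjusted p = 0.201). Lox, for lysyl oxidase, averaged 2.27 ± 1.86 CPM in KO and 4.05 ± 1.18 CPM in WT (SD, n = 3 each), and its groups overlapped (adjusted p = 0.442).

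The secreted regulators were mixed. Ccn2 and Ccn1, matricellular genes known as targets of the YAP and TEAD transcription factors, averaged 1.18 and 0.622 CPM in KO and 3.85 and 1.39 CPM in WT. The gap between KO replicates 3 and 2 was 11.2-fold for Ccn2 and 17.5-fold for Ccn1, and adjusted p was 0.119 and 0.374. Fstl1, for a follistatin-like glycoprotein, averaged 1.43 CPM in KO, which was 35.7% of its WT mean, and Igfbp7, for a secreted binding protein, averaged 0.551 CPM in KO and 1.77 CPM in WT, with adjusted p of 0.109 and 0.0743. Serpinf1, which encodes PEDF, averaged 1.16 CPM in KO and 2.21 CPM in WT, and Cxcl12, the chemokine that holds blood stem cells in the marrow, averaged 0.440 CPM in KO and 0.651 CPM in WT. The mesenchymal genes Tagln, for an actin-binding protein of smooth muscle, and Pdgfrb, for a growth factor receptor of pericytes, averaged 0.958 and 0.660 CPM in KO, which was 46.8 and 44.1% of their WT means, with adjusted p of 0.279 and 0.283, and Acta2 averaged 2.57 CPM in KO and 4.88 CPM in WT (adjusted p = 0.365).

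A few genes varied much less between libraries than the rest of the list. Igfbp4, which encodes an insulin-like growth factor binding protein, was the most abundant member at 194, 168 and 189 CPM in KO replicates 1, 2 and 3, against 174, 176 and 184 CPM in WT replicates 1, 2 and 3. Its libraries overlapped and spanned 1.16-fold from lowest to highest, whereas the listed genes spanned a median of 8.91-fold and all tested genes a median of 1.18-fold. It had a log2 fold change of 0.04 (SE 0.06, limma BH-adjusted p = 0.801). Efemp2, for the elastic fibre protein fibulin 4, had 8.83, 6.17 and 7.76 CPM in KO replicates 1, 2 and 3, against 7.02, 7.67 and 9.07 CPM in WT replicates 1, 2 and 3. Cavin1, for a structural protein of caveolae, had 4.16, 3.05 and 4.61 CPM in KO replicates 1, 2 and 3, against 5.46, 4.79 and 5.24 CPM in WT replicates 1, 2 and 3. Fbln5, for the elastic fibre protein fibulin 5, had 1.86, 1.35 and 1.38 CPM in KO replicates 1, 2 and 3, against 1.54, 0.984 and 0.966 CPM in WT replicates 1, 2 and 3. Efemp2, Cavin1 and Fbln5 spanned 1.47-, 1.79- and 1.92-fold, each above the median of 1.42-fold for tested genes averaging 1 to 10 CPM. Igfbp4, Efemp2, Cavin1 and Fbln5 were the 4 listed genes whose highest library was under 2-fold above the lowest. Cavin1 was the one of them that was lower in every KO library, and it still tracked the other low-level members (r = 0.962), with a small amplitude. None of the 4 passed the test.

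Fn1, for fibronectin, a glycoprotein that macrophages are known to make, lay between the steady and the variable genes. It had 49.8, 33.9 and 77.2 CPM in KO replicates 1, 2 and 3, against 57.6, 86.9 and 86.1 CPM in WT replicates 1, 2 and 3. The groups overlapped, because KO replicate 3 was above WT replicate 1, and the library range was 2.57-fold. Fn1 had a log2 fold change of -0.57 (SE 0.27, limma BH-adjusted p = 0.442). Levels between genes can be compared per kilobase of merged exon, and on that scale the mean over 6 libraries was 40.9 CPM per kb for Igfbp4, 5.58 for Fn1, 2.05 for Efemp2, 1.68 for Col1a1, 1.28 for Col1a2, 1.27 for Cavin1 and 0.355 for Col3a1. Igfbp4 and Fn1 were thus the 2 most abundant members per length. Deviations from the genotype mean correlated with those of the low-level members at 0.706 for Igfbp4 and 0.766 for Fn1, over a much smaller range of fold. Both genes were lowest in KO replicate 2, but the highest KO library of Igfbp4 was replicate 1. In both genes WT replicate 1 was the lowest WT library, whereas the low-level members had their highest WT deviation there (0.09). Bulk libraries do not show which cell a transcript came from, and the cell source of each member was not tested.

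The collagens were also set against Col1a2 of the same library, a measure in which a movement common to both genes cancels. Of 36 ratios, Col3a1 was the one for which every KO library was below every WT library, and it is singled out after the values were seen, with no test. With 3 libraries against 3 some ratios can separate without any genotype difference, and the share over all tested genes was not computed. Col3a1 was 12.1, 13.4 and 9.19% of Col1a2 in KO replicates 1, 2 and 3, against 37.4, 23.9 and 17.4% in WT replicates 1, 2 and 3. Means were 11.5 ± 2.14% in KO and 26.2 ± 10.2% in WT (SD, n = 3 each), a KO/WT ratio of 0.456. KO libraries that differed 6.44-fold in Col1a2 itself thus lay close together in this ratio, while the WT libraries spread. Leaving out each library in turn gave KO/WT ratios from 0.381 to 0.559. With Col1a1, Sparc or Bgn as the denominator the ratio was 0.475, 0.471 or 0.354, and with the sum of the other low-level members 0.303, always without overlap. Deviations of Col1a2, Col1a1, Sparc and Bgn each correlated with the other low-level members at 0.977 to 0.989. These denominators therefore largely repeat the comparison for which Col3a1 was picked, and add no separate support. Col5a2, the tested gene next to Col3a1 on chromosome 1, was 16.5 ± 2.42% of Col1a2 in KO and 16.9 ± 0.891% in WT (SD, n = 3 each). Of the 20 tested genes within 10 places of Col3a1 on that chromosome 3 passed the test, against 1.27% of all tested genes. Nck2 and Slc39a10 were lower in KO and Slc40a1 was higher. For 9 genes the ratio to Col1a2 was higher in every KO library, among them Igfbp4, Efemp2, Cavin1, Fbln5 and Fn1. Col1a2 was itself lower in every KO library, so a gene that is steady between genotypes has a higher ratio in KO by arithmetic. This count therefore says nothing more about those genes.

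**Figure D3:**
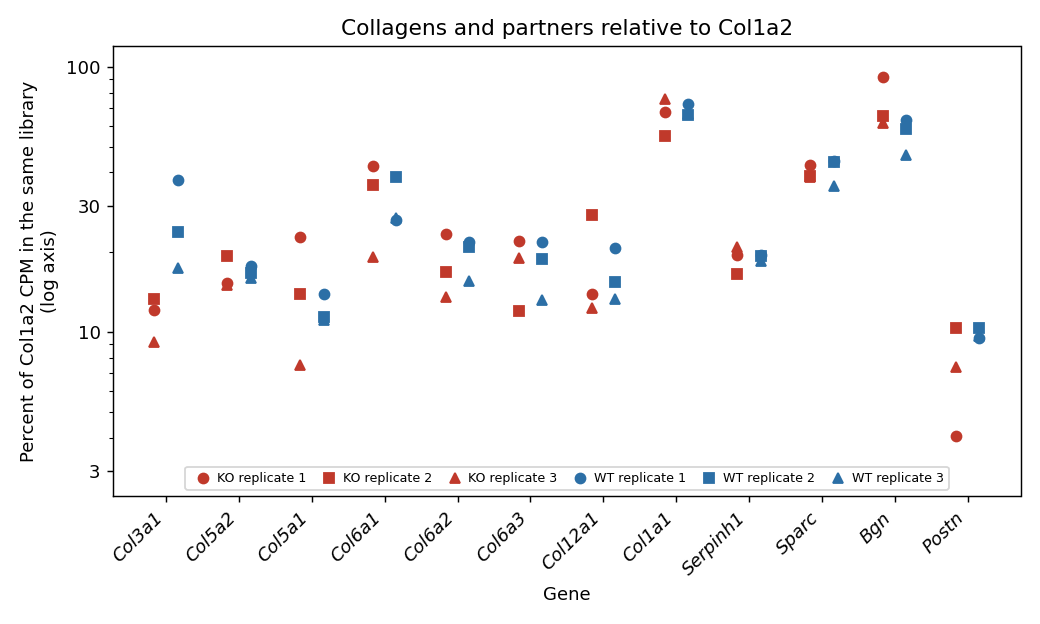
Level of 12 collagen and collagen-partner genes as a percent of Col1a2 CPM in the same library (log axis), with KO libraries in red left of WT libraries in blue. The Col3a1 marks of the 3 KO libraries, at 9.19 to 13.4%, all lie below the WT marks at 17.4 to 37.4%, while for the other 11 genes the colours overlap.

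The promoters of Col1a2 and Col3a1 are shown because these genes moved together between libraries and yet parted in that ratio. Windows run from 250 bases before to 50 bases after the RefSeq start (GRCm38.p6), on the plus strand. Capitals mark 3 motifs, searched on both strands: the CCAAT box, whose letters are its name, the TATA box with the letters TATAAA, and the TEAD motif with the letters GGAATG. No motif overlapped another in these windows.
Col1a2 chr6:4505368-4505667: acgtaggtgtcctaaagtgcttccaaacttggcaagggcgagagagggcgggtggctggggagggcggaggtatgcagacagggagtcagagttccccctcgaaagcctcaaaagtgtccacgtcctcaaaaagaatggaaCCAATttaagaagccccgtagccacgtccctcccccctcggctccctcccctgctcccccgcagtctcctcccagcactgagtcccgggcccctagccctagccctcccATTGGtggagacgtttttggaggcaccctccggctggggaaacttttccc
Col3a1 chr1:45311288-45311587: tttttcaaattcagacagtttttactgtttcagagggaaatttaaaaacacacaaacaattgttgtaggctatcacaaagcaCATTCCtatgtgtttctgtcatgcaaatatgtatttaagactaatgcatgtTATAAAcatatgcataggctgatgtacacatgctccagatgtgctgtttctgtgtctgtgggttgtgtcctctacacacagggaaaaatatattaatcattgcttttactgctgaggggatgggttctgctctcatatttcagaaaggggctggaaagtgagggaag
The Col1a2 window held CCAAT on each strand, and the Col3a1 window held 1 TATAAA and 1 TEAD match. RefSeq windows were found for 27 of the 37 listed genes. CCAAT was present in 9 of the 27, against 41.0% of 26742 genes with a window, TATAAA in 5 of the 27, against 15.6%, and the TEAD motif in 6 of the 27, against 16.5%. A match is only a match of letters in this window.

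The mature miR-130b-3p is shown because it is a product of the deleted cluster and its seed, bases 2 to 8 in capitals, is what pairs with target transcripts (RefSeq, chr16:17124071-17124092, minus strand, GRCm38.p6).
mmu-miR-130b-3p: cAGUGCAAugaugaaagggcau
A 3′ UTR that pairs with the full seed holds the letters TTGCACT. These letters occurred in the longest annotated 3′ UTR of 2 of the 37 listed genes (5.41%), against 12.3% of the 10707 tested genes with an annotated 3′ UTR. The sites, with TTGCACT in capitals, lie in Pdgfra on chromosome 5 and in Thbs2 on chromosome 17.
Pdgfra: cacgttaactgTTGCACTtttgaatgtcc
Thbs2: agaaacatcaaTTGCACTccaagagcttc
Pdgfra, a growth factor receptor of mesenchymal cells, had 0.196, 0.0702 and 0.551 CPM in KO replicates 1, 2 and 3, against 1.19, 0.594 and 0.605 CPM in WT replicates 1, 2 and 3, and was too low to be tested. The letters were in none of Col3a1, Col12a1 and Postn.

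Genes of the same pathway that are not on the list were read from the same fit. Of 29 collagen-processing enzyme genes 21 were listed and 19 tested, with 0 higher and 1 lower in KO and a median log2 fold change of -0.09. The one lower gene was Bmp1, which trims the C-terminal propeptide of procollagen. It had 0.390, 0.282 and 0.468 CPM in KO replicates 1, 2 and 3, against 1.11, 1.26 and 1.31 CPM in WT replicates 1, 2 and 3, and the KO libraries did not overlap WT. No KO library reached 1 CPM, so Bmp1 could enter the test only by being high in WT, and its call adds no support. Of the 8 enzymes with a mean under 10 CPM, 7 had every KO library below every WT library and 4 followed the KO order of the collagens. Of the 13 with 10 CPM or more these numbers were 4 and 3, and the shares of all tested genes were 9.1% and 17.7%. The difference between the low and the abundant enzymes was not tested. Pcolce, a procollagen processing enhancer named after its values were seen, had 0.675, 0.237 and 0.908 CPM in KO replicates 1, 2 and 3, against 1.44, 1.20 and 1.43 CPM in WT replicates 1, 2 and 3. P4hb, a subunit of prolyl 4-hydroxylase and the most abundant of the enzymes, had 554, 554 and 544 CPM in KO replicates 1, 2 and 3, against 594, 571 and 576 CPM in WT replicates 1, 2 and 3, and did not pass (adjusted p = 0.364).

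**Figure D4:**
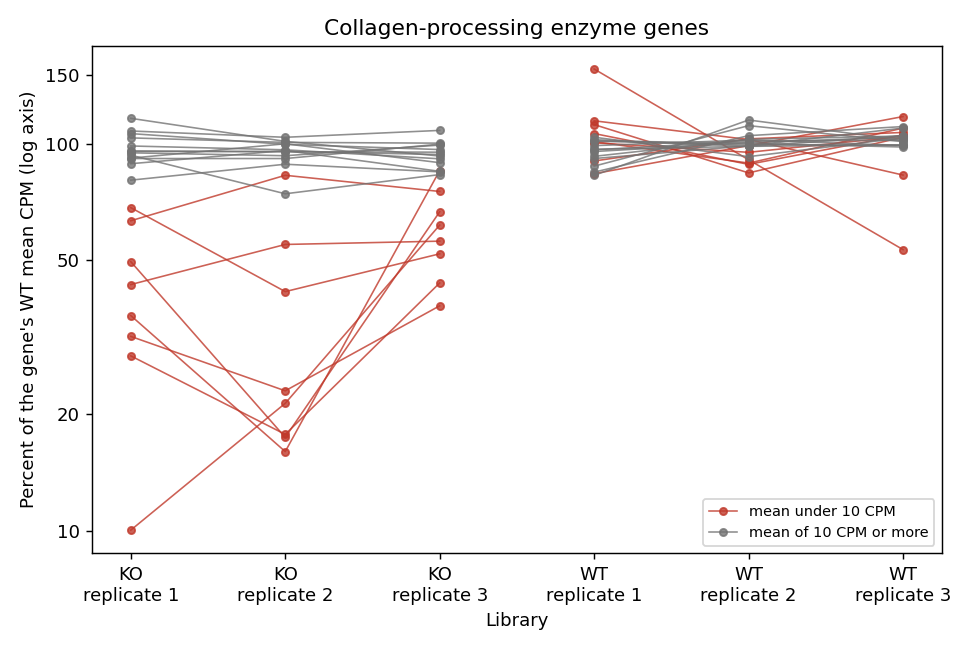
Level of 21 collagen-processing enzyme genes in each library as a percent of the gene's WT mean (log axis); each line joins the values of 1 gene within a genotype, red for genes with a mean under 10 CPM and grey for the others. The red points of the KO libraries all lie below 100%, most of them lowest in KO replicate 2, while the grey lines stay near 100% in both genotypes.

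Of 44 other collagens and matrix proteins 25 were listed and 18 tested, with 0 higher and 2 lower in KO and a median log2 fold change of -0.10. Thbs1, for thrombospondin 1, averaged 648 ± 35.1 CPM in KO and 795 ± 33.0 CPM in WT (SD, n = 3 each; limma BH-adjusted p = 0.0266). Tnc, for the matricellular protein tenascin C, had 1.08, 0.579 and 1.57 CPM in KO replicates 1, 2 and 3, against 2.90, 3.48 and 3.13 CPM in WT replicates 1, 2 and 3. It showed the KO order of the collagens, with a log2 fold change of -1.03 (limma BH-adjusted p = 0.0324). Of 18 matrix receptor and uptake genes 14 were listed and 12 tested, with 0 higher and 2 lower in KO. Lair1, an inhibitory receptor for collagen on leukocytes, averaged 110 ± 4.27 CPM in KO and 137 ± 5.51 CPM in WT (SD, n = 3 each; limma BH-adjusted p = 0.0143). Mfge8, a bridge between dying cells and integrins, averaged 117 ± 9.10 CPM in KO and 155 ± 9.73 CPM in WT (SD, n = 3 each; limma BH-adjusted p = 0.0219). In Lair1 and Mfge8 KO replicate 2 was the highest KO library, unlike in the collagens. Of the 14 listed receptor and uptake genes 7 nevertheless followed the KO order of the collagens, against 17.7% of all tested genes. In 8 of the 14 every KO library was below every WT library, against 9.1% of all tested genes.

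Markers of other cell types were mostly unlisted or low. Of 17 further stromal and fibroblast markers 4 were listed (Prrx1, Pdpn, Pi16 and Col15a1), and their summed level ran from 3.49 to 4.51 CPM in KO libraries and from 5.95 to 10.1 CPM in WT libraries. Pdpn, for the membrane glycoprotein podoplanin, averaged 1.96 ± 0.262 CPM in KO and 4.93 ± 1.56 CPM in WT (SD, n = 3 each), lower in every KO library, and did not pass (limma BH-adjusted p = 0.0508). Prrx1, a mesenchymal transcription factor, averaged 0.675 ± 0.373 CPM in KO and 1.67 ± 0.409 CPM in WT (SD, n = 3 each), in the KO order of the collagens, and did not pass (limma BH-adjusted p = 0.192). Col15a1 averaged 1.03 CPM in KO and 0.907 CPM in WT, with its highest value in KO replicate 2, and Pi16 averaged 0.309 CPM in KO and 0.335 CPM in WT. Of 11 marrow stromal and osteoblast markers 3 were listed, Kitl, Runx2 and Grem1, summing to between 56.8 and 67.0 CPM in KO and between 53.6 and 60.0 CPM in WT. Kitl, which made up most of that sum, averaged 50.6 CPM in KO and 43.4 CPM in WT and was higher in every KO library. Runx2 averaged 9.39 CPM in KO and 11.3 CPM in WT, Grem1 averaged 0.649 CPM in KO and 1.46 CPM in WT, and both were lower in every KO library. Of 11 smooth muscle and pericyte markers 4 were listed, summing to between 1.20 and 2.20 CPM in KO and between 1.62 and 1.67 CPM in WT, and Notch3 was listed at 0 in KO replicate 2. Actg2 and Notch3 were lower in every KO library, while Cspg4 averaged 0.579 CPM in KO and 0.197 CPM in WT and was higher in every KO library. Of 12 endothelial markers 7 were listed, summing to between 158 and 190 CPM in KO and between 179 and 192 CPM in WT, with Vwf and Eng the most abundant. Of 8 adipocyte markers Fabp4, which macrophages also express, was the one listed, at 35.6 to 40.8 CPM in KO and 41.7 to 54.6 CPM in WT. The test covered 3 of the 4 stromal, 3 of the 3 marrow stromal, 0 of the 4 smooth muscle, 5 of the 7 endothelial and 1 of the 1 adipocyte markers listed, and none of those tested passed. The part of other cells in the collagen values was not tested.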

How the data were processed

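The authors deposited 1 table of CPM for 13254 genes in 6 libraries, with identifiers and symbols, per the file headers. The submitters' processing notes name GRCm39; the scaling, counter, aligner, annotation and strandedness are not given in the sources used here. Column sums ran from 989223 to 1018258 CPM. Whole reads could not be recovered, so depth is unknown and no counting interval is given. A single unlabelled column was not used, and 0 columns of further samples were present. Libraries were grouped by genotype label. Genes that reached 1 CPM in 3 or more libraries were compared on log2(CPM + 1), which understates changes of low genes, by limma 3.58.1 (R 4.3.3) with a mean-variance trend and Benjamini-Hochberg adjustment at 0.05. The fit was tested on simulated data. Lengths and 3′ UTRs came from GENCODE M21 (GRCm38), which matched 12676 identifiers and all 37 listed members, and sequences from RefSeq. Text handling used Python 3.11.15. The members and lists were chosen with earlier results of these data known. Members past the test, those averaging at least 10 CPM and the fibrillar collagens are given in every library. Of each other list, up to 3 genes past the test, or the 2 most abundant, are named; genes outside this rule were chosen after their values were seen. Alternatives changed the pseudocount, filter, scaling, trend and block, or left out 1 library. Coordinates of the members are on GRCm38, not on the build of the notes.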

Additional observations from a re-analysis of the deposited data

How the results depend on the processing

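The number of matrix genes past the test, 3 in all, depended on most settings, and all but 1 of the called genes lay near the threshold. It was 0 with a mean of at least 5 CPM, where 7 of them were tested. Col3a1, Col12a1 and Postn average 3.49, 2.53 and 1.44 CPM and were not among those 7, so that 0 is not a lost call. The number was 0 without the trend, 1 with a pseudocount of 0.1, 1 with 0.5, and 5 with the replicate block. It ran from 0 (without KO replicate 1 or WT replicate 2) to 11 (without KO replicate 3) when libraries were left out. It was 1 without WT replicate 1 or WT replicate 3, and 4 without KO replicate 2. The count over all tested genes, 147, was 74 without the trend, and ran from 55 (without WT replicate 3) to 243 (without WT replicate 1), with 63 without KO replicate 1 and 58 without WT replicate 2. The cause was not tested. Without a filter 4 matrix genes passed, with Dcn the added one, and with median-of-ratios rescaling 3.

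The labels do not say whether replicate numbers pair the libraries. Deviations of same-numbered libraries correlated at 0.000154, 0.0834 and 0.0646, and those of differently numbered libraries at -0.0819 to 0.0285. With 3 libraries of each genotype, these values cannot decide whether the numbers pair them. With the replicate block 142 genes passed in all, and the 5 matrix genes were Col3a1, Postn, Ccn2, Col5a1 and Col4a1, while Col12a1 did not pass (limma BH-adjusted p = 0.0541). The log2 fold change of Efemp2 reversed without KO replicate 2 (0.0631) and without WT replicate 3 (0.0301), and ran from -0.1645 to 0.0631 when libraries were left out. The median r between low-level members ran from 0.497 to 0.862 when a library was left out, and was 0.827 with a pseudocount of 0.1. The count of genes with every KO library below every WT library, 25, ran from 25 to 33 when a library was left out. Leaving out a library only removes comparisons, so this count could not fall and its range does not test it. This alternative was added after the data were seen, like the other denominators for Col3a1. Unknown depth limits every value under 1 CPM.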

Other observations

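Some other tested genes shared the library order of the collagens. The order KO replicate 2, KO replicate 1, KO replicate 3 from low to high, with all WT libraries above, held for 205 genes outside the list. Over all tested genes, the list included, it held for 1.95%. In 14 of the 205 KO replicate 3 exceeded KO replicate 2 by at least 2-fold. The genes named here were chosen after their values were seen. Fat1, with the widest such gap, averaged 0.966 CPM in KO and 3.03 CPM in WT. Serpinb2 averaged 0.617 CPM in KO and 1.68 CPM in WT, and no KO library of it reached 1 CPM. Aebp1, which encodes a secreted protein that binds collagen, averaged 2.05 ± 1.67 CPM in KO and 4.34 ± 0.0712 CPM in WT (SD, n = 3 each). Hspg2, for the basement membrane proteoglycan perlecan, averaged 0.587 ± 0.437 CPM in KO and 2.04 ± 0.115 CPM in WT. Cald1 and Tpm2, for the actin-binding proteins caldesmon and a tropomyosin, averaged 3.19 and 1.06 CPM in KO and 6.27 and 1.90 CPM in WT. Cyp1b1, for a cytochrome P450, averaged 2.12 CPM in KO and 5.42 CPM in WT. Enpp2, for the lysophospholipase autotaxin, averaged 0.336 ± 0.142 CPM in KO and 1.31 ± 0.257 CPM in WT (SD, n = 3 each), and it entered the test only through WT, since no KO library reached 1 CPM.

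Among other collagens Col4a6 and Col4a5 went the other way, with every KO library above every WT library, as in 8.55% of all tested genes. Col4a6 averaged 1.41 ± 0.316 CPM in KO and 0.476 ± 0.0514 CPM in WT, and Col4a5 averaged 16.9 ± 1.22 CPM in KO and 11.4 ± 2.32 CPM in WT (SD, n = 3 each). For Col4a5 the limma BH-adjusted p was 0.120. Col4a6 reached 1 CPM in KO libraries only, and so entered the test only through KO, where it was high. Neither gene passed.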
